A study of Mus musculus with 112 samples.

Results

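B6C3F1/J mice are the first-generation hybrid of 2 inbred strains, C57BL6/J and C3H/HeJ, and the comparison described here set the cerebral cortex of the calorie-restricted (CR) hybrid against the mean of its calorie-restricted parental strains. The members were chosen by the labels of strain and diet, and they were the 24 CR arrays of the hybrid and of both parental strains, 8 of each, of 112 arrays in all. The 22 control-diet arrays of the same strains that remained after 2 were left out served to see which departures recurred. The whole series held cerebral cortex of 7 strains, the other 4 being 129S1/SvImJ, Balbc/J, CBA/J and DBA/2J, each under a control diet and under CR with 8 arrays per group.

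The mice were males, bought at 6 weeks of age and housed singly, and every group received 84 kcal per week of a purified AIN93M-type diet until 8 weeks of age. Outside Balbc/J, control mice then stayed on that ration and CR mice received less food. In Balbc/J control mice received more food, and CR mice the ration of the other strains' control mice. Cortex was taken at 22 weeks after an overnight fast. The methods state that C3H/HeJ and B6C3F1/J mice kept the same CR ration, whereas the food of C57BL6/J CR mice was lowered again during the study. Taken under CR alone, a difference between the CR hybrid and its parental mean therefore cannot be told apart from that difference in ration of 1 parent. Control mice of these strains shared the same ration, so departures that recurred in control were also called without that difference. The labels name no batch, so strain cannot be told apart from any processing that was done strain by strain. RNA was measured on whole tissue, where fewer cells of a type and less RNA per cell cannot be told apart.

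In a hybrid of 2 inbred strains each autosomal gene has 1 allele from each parent. If each allele is read in the hybrid as it is read in its own strain, the level of RNA lies at the mean of the parents on a linear scale. Some groups of genes depart from this scheme by their inheritance. The name of the hybrid places the mother's strain first, so a male B6C3F1/J mouse carries the X chromosome of C57BL6/J and the Y chromosome of C3H/HeJ. Imprinted genes are read from the allele of 1 parent only.

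Among the largest departures under CR were 3 neighbouring microRNA genes on chromosome 12, Mir337, Mir540 and Mir665, which lie in the imprinted Dlk1-Dio3 region. MicroRNAs are short RNAs that pair with messenger RNAs through a seed, bases 2 to 8 from the 5′ end, and lower their output. The mature sequences are shown, from RefSeq on GRCm38.p6, because these 3 genes were among the largest rises in both diets, with the seed in capitals. The array reads the precursor, so the signal does not say which arm, if any, was more abundant as a mature microRNA. The 6 seeds all differ from each other.
mmu-miR-337-5p, plus strand, chr12:109585818-109585839: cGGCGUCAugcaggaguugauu
mmu-miR-337-3p, plus strand, chr12:109585850-109585871: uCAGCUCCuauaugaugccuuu
mmu-miR-540-5p, plus strand, chr12:109586085-109586107: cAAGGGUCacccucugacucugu
mmu-miR-540-3p, plus strand, chr12:109586122-109586141: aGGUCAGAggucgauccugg
mmu-miR-665-5p, plus strand, chr12:109586331-109586356: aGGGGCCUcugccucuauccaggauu
mmu-miR-665-3p, plus strand, chr12:109586368-109586387: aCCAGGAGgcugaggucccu

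Values are log2 signals per gene, 1 unit being a doubling, and a departure is the mean of the 8 hybrid arrays minus the mean of the 2 parental means. The threshold for a call was an adjusted p of 0.05 in limma, by Benjamini-Hochberg over 19938 genes. Array medians over these genes ran from 7.14 to 7.26, and precision is set by the number of arrays rather than by a read depth. Departures under CR had a median standard error of 0.055 log2 units.

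Several arrays bear on how the results can be read. The fit left out 1 control array of C57BL6/J (replicate 6) and 1 of B6C3F1/J (replicate 8). On 216 autosomal genes whose parents differed by at least 0.5 log2 units under CR, where 0 is the C57BL6/J mean and 1 the C3H/HeJ mean, the former lay at 0.253, whereas the other C57BL6/J control arrays lay between -0.03 and 0.05. The latter lay at 0.620, just above the other hybrid control arrays at 0.521 to 0.610. Both were set aside when the comparison was laid out, with earlier results of these data known, and these positions only describe them. Another array, C3H/HeJ control replicate 4, was kept. It lay at 0.983 on the same strain measure, within the range of its group, yet its values resembled those of the hybrid in many genes that separated the hybrid from both parents. Its Mir665 signal was 9.45 against 8.38 to 8.91 in the other 7 C3H/HeJ control arrays and 9.41 to 9.70 in the hybrid control arrays. Its Atp5md signal was 10.62 against 11.08 to 11.34 in the other 7 and 10.28 to 10.65 in the hybrid control arrays.

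To place every array on this axis, each array was given a score, the mean log2 signal of the 608 genes above both parents under CR minus the mean of the 946 genes below both. These genes were chosen on the CR arrays, so the distance between the hybrid and its parents under CR is a description. Under CR the score ran from -0.390 to -0.285 in C57BL6/J, from -0.366 to -0.139 in C3H/HeJ and from 0.0717 to 0.240 in B6C3F1/J. In the control arrays, which did not choose the genes, it ran from -0.401 to -0.310 in C57BL6/J and from 0.0187 to 0.164 in B6C3F1/J. C3H/HeJ control replicate 4 scored 0.0723, within the hybrid range, and the other 7 C3H/HeJ control arrays ran from -0.302 to -0.151. The inbred strain 129S1/SvImJ also reached the level of the hybrid, from 0.0753 to 0.251 under CR and from 0.104 to 0.310 in control. CBA/J and DBA/2J had CR medians between the parents and the hybrid, -0.00419 and -0.0884, and Balbc/J lay in the range of C3H/HeJ with a CR median of -0.237. CBA/J control arrays ran from -0.0301 to 0.0684, so the highest of them lay within the hybrid control range. DBA/2J control replicate 8 scored 0.209, above every hybrid control array, whereas the other 7 DBA/2J control arrays ran from -0.136 to -0.043. The direction in which the hybrid left its parents was thus also the direction in which 129S1/SvImJ, 1 parental array and 1 DBA/2J array lay apart. Some CBA/J control arrays reached the hybrid level too, and what moved these arrays was not tested. Without C3H/HeJ control replicate 4 the number of genes called in control was 3872 in place of 3795. When the fit also left out that DBA/2J array and 1 of CBA/J (CR replicate 6), 4521 genes were called under CR and 3864 in control, against 4463 and 3795.

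**Figure D1:**
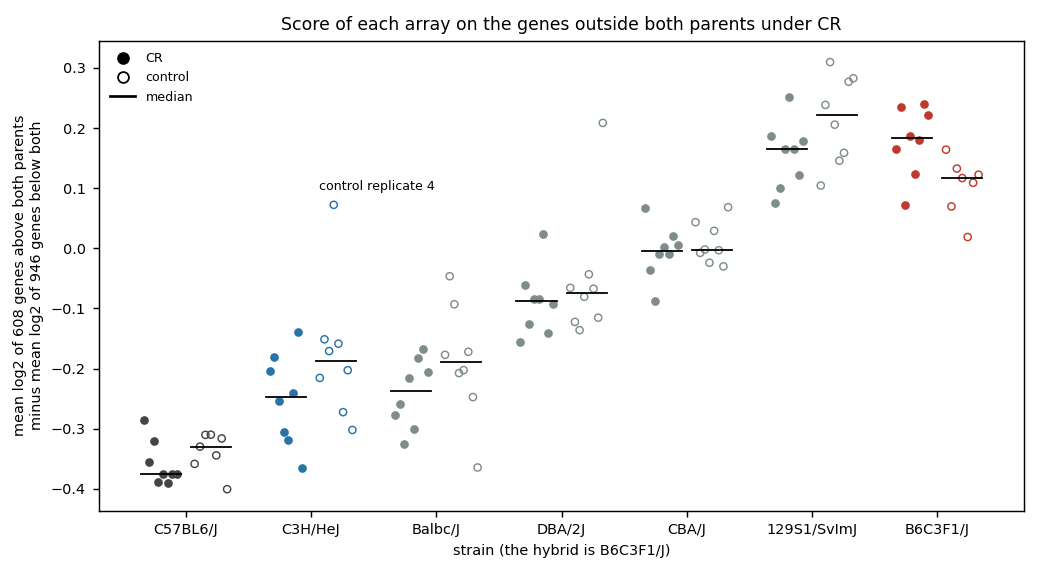
Score of each array, the mean log2 signal of 608 genes above both parents under CR minus that of 946 genes below both, by strain and diet. Filled points are CR arrays, open points control arrays and lines medians, with the 2 arrays left out not drawn. The hybrid lay above both parents in each diet, and C3H/HeJ control replicate 4 lay at 0.0723. Arrays of 129S1/SvImJ and some CBA/J control arrays overlapped the hybrid.

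Under CR the hybrid departed from the parental mean in 4463 of 19938 genes, 22.4% of those tested. It was higher in 1921 (9.63%) and lower in 2542 (12.7%). Most departures were small, with a median size of 0.17 log2 units among the called genes. A departure of at least 0.2 was found in 1563 called genes and of at least 0.5 in 33, 22 of them higher and 11 lower. The parents themselves were called different under CR in 1611 of the 4463 genes and were not called different in 2852.

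Taken alone, each parent gave a contrast of its own. The hybrid was called different from C57BL6/J in 29.2% of genes under CR and 36.6% in control, and from C3H/HeJ in 15.0% under CR and 7.84% in control, whereas the parents differed from each other in 21.1% under CR. The 4463 genes were then divided by how the hybrid differed from each parent. In 2153 the hybrid differed from C57BL6/J and was not called different from C3H/HeJ, and in 576 it differed from C3H/HeJ and was not called different from C57BL6/J. In 38 it lay between the parents and differed from both, and in 142 it differed from neither. The other 1554 genes lay outside both parents with a call against each, 7.79% of all genes, 608 above (3.05%) and 946 below (4.74%). In 138 genes no hybrid array overlapped any of the 16 parental arrays, 72 with the hybrid above (0.361%) and 66 below (0.331%). Among all 7 strains the hybrid mean was the highest or the lowest in 619 of the 1554 genes. These genes were chosen for lying beyond both parents, which raises that share, so it cannot be compared with the shares over all genes. Over all genes the hybrid was the highest strain in 11.1% and the lowest in 8.43%, whereas the 6 inbred strains were highest in 10.4% to 22.9% and lowest in 6.8% to 26.2%.

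Direction depended on signal level. Among the 4985 genes with the lowest mean signal 4.91% were called higher and 0.582% lower, and among the 4985 with the highest 15.6% were called higher and 25.3% lower. The median departure fell from 0.05 to -0.03 log2 units between these sets. Of 297 microRNA genes 52 were called higher and 4 lower, and of 675 long non-coding RNA genes 95 were higher and 14 lower, where all genes together gave 9.63% higher and 12.7% lower.

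In the control diet the hybrid departed from its parental mean in 3795 genes (19.0%), 1448 higher (7.26%) and 2347 lower (11.8%). Of the 4463 CR departures 2510 recurred, meaning that they were called in the same direction in control. That was 56.2% of the CR calls, 66.1% of the control calls and 12.6% of all genes, and it comprised 864 genes higher and 1646 lower. Of the CR calls 4357 had the same sign in control, 97.6%, against 78.5% of all genes. The other 106 had the opposite sign, and none of these was called in control. In the direction of the CR call, the median size in control was 0.14 log2 units against 0.17 under CR. Without C3H/HeJ control replicate 4, 2596 departures recurred. CR and control arrays came from different mice of the same strains, so recurrence covers what the strains carried in both diets.

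**Figure D2:**
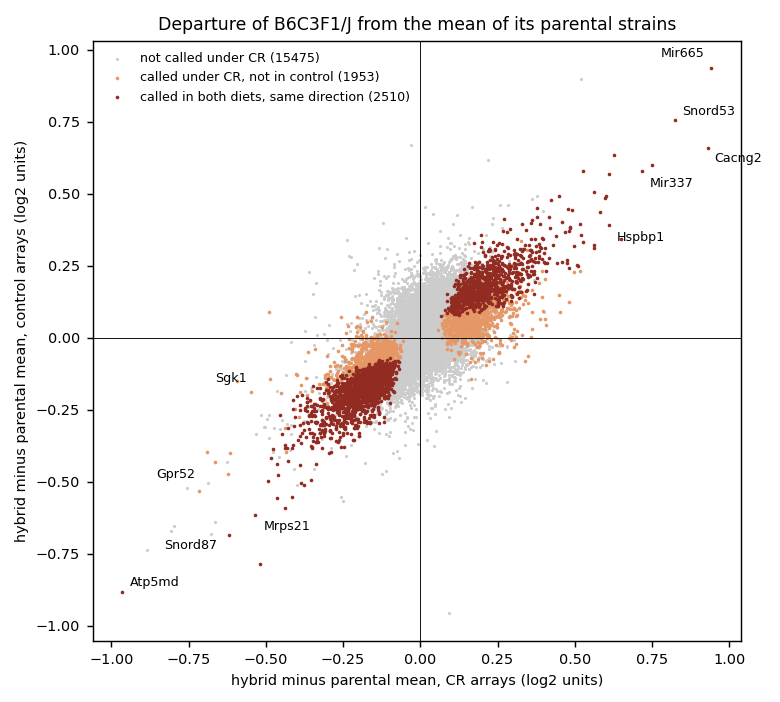
Departure of the hybrid from the parental mean in CR arrays (horizontal, log2 units) and control arrays (vertical, log2 units), 1 point per gene. Dark points are the 2510 genes called in both diets in the same direction, orange points the other genes called under CR and grey points the rest. Mir665 and Cacng2 lay at the upper right and Atp5md at the lower left.

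The difference between the CR departure and the control departure was tested directly. No gene was called by limma, and 839 of 19938 had an unadjusted p under 0.05. The median standard error of this difference was 0.08 log2 units, so differences of the size of most departures were not detectable gene by gene. Without C3H/HeJ control replicate 4 no gene was called and 777 had an unadjusted p under 0.05. The 4 genes with the smallest p were Vgf, Flot2, Stim2 and Tesk1. Vgf, a secreted neuropeptide precursor, departed by 0.24 log2 units under CR (adjusted p = 0.000124) and by -0.07 in control (adjusted p = 0.34). Flot2, a membrane raft scaffold protein, departed by 0.48 under CR and 0.24 in control, and was called in each.

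Mir665 had the largest positive departure among called genes. Its signal ran from 9.30 to 9.70 in the hybrid CR arrays (median 9.48), from 8.25 to 8.60 in C57BL6/J (median 8.34) and from 8.63 to 8.86 in C3H/HeJ (median 8.70). All 8 hybrid arrays lay above all 16 parental arrays. The departure was 0.94 ± 0.08 log2 units (SE, adjusted p = 2.95e-16), 1.92-fold, and it was also 0.94 in control (adjusted p = 4.36e-14). Mir337 ran from 8.76 to 9.07 in the hybrid, from 7.97 to 8.23 in C57BL6/J and from 8.08 to 8.47 in C3H/HeJ, a departure of 0.72. Mir540 ran from 8.97 to 9.33 in the hybrid, from 8.33 to 8.67 in C57BL6/J and from 8.45 to 8.78 in C3H/HeJ, a departure of 0.61. Neither showed overlap between the hybrid and the parents, and both recurred in control with 0.58 and 0.57. In all 3 genes 129S1/SvImJ had the highest CR mean of the 7 strains, for Mir665 9.91, above every hybrid array.

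The neighbours of these genes were examined after their values had been seen. Of 40 microRNA genes measured between Begain and Dio3, 14 were called higher and 2 lower, 11 recurred, and the median departure was 0.16 log2 units under CR and 0.19 in control. The median over all 297 microRNA genes was 0.09 under CR, and 52 of the 297 were called higher and 4 lower. Among all genes 9.63% were called higher and 12.7% lower. Mir377 departed by 0.44 (adjusted p = 3.97e-06) and Mir299a by 0.40 (adjusted p = 0.000278). Of the 8 other genes measured there, only Begain, a protein of the postsynaptic density, was called, with 0.48 (adjusted p = 5.46e-09). The long non-coding RNAs Meg3 and Rian, which are read from the maternal chromosome along with the microRNAs, departed by 0.08 (adjusted p = 0.0756) and 0.18 (adjusted p = 0.101). Rtl1, read from the paternal chromosome, departed by 0.14 (adjusted p = 0.0709). These 3 were not called under CR, but in control, with departures of 0.13, 0.24 and 0.26, they were.

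Other genes rose beyond both parents without overlap. Cacng2, also called stargazin, carries AMPA-type glutamate receptors to the synapse. Its signal ran from 10.59 to 11.14 in the hybrid, from 9.70 to 9.92 in C57BL6/J and from 9.95 to 10.31 in C3H/HeJ, and the departure was 0.93 ± 0.07 (SE, adjusted p = 2.06e-20). The other probe set of Cacng2 gave a departure of 0.03 ± 0.06 (SE, unadjusted p = 0.638), so the 2 probe sets disagreed. Hspbp1, a regulator of the chaperone Hsp70, departed by 0.61 (adjusted p = 1.3e-19) and ran from 10.03 to 10.51 in the hybrid against 9.40 to 9.97 in the parental arrays. Rspo1, a secreted activator of Wnt signalling, departed by 0.65 (adjusted p = 2.84e-06) and by 0.34 in control (adjusted p = 0.0299).

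The other genes among the 10 largest called rises were Snord53, AI506816, Gm10874 and A530032D15Rik. Snord53, a small nucleolar RNA, showed a different form. It ran from 9.98 to 10.86 in the hybrid, from 8.36 to 9.08 in C57BL6/J and from 10.40 to 11.03 in C3H/HeJ, so that the hybrid was called different from C57BL6/J and not from C3H/HeJ. With parents this far apart, the mean of log2 signals lies below the parental mean on linear signal. Its departure is therefore smaller against the linear mean. AI506816 and Gm10874 departed by 0.75 and 0.63, each with 5 of 8 hybrid arrays above all parental arrays, and both recurred. A530032D15Rik departed by 0.60, and its other probe set gave 0.09 (unadjusted p = 0.204).

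Atp5md had the largest negative departure among called genes. It encodes a small subunit of the mitochondrial ATP synthase that helps to hold the enzyme in dimers. Its signal ran from 10.19 to 10.61 in the hybrid (median 10.42), from 11.29 to 11.67 in C57BL6/J (median 11.53) and from 11.14 to 11.38 in C3H/HeJ (median 11.22). All 8 hybrid arrays lay below all 16 parental arrays. The departure was -0.96 ± 0.06 (SE, adjusted p = 6.36e-23), a change of -48.8%, and -0.88 in control. The 2 other probe sets of the gene gave -0.90 and -0.94, and the hybrid mean was the lowest of the 7 strains. The 5 genes that fell most in the class outside both parents also included Snord87 (-0.62), Mrps21 (-0.54), a subunit of the mitochondrial ribosome, and Slc7a3 (-0.48), a transporter of cationic amino acids. These 3 recurred in control, with 7, 5 and 7 of 8 hybrid CR arrays below all parental arrays.

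**Figure D3:**
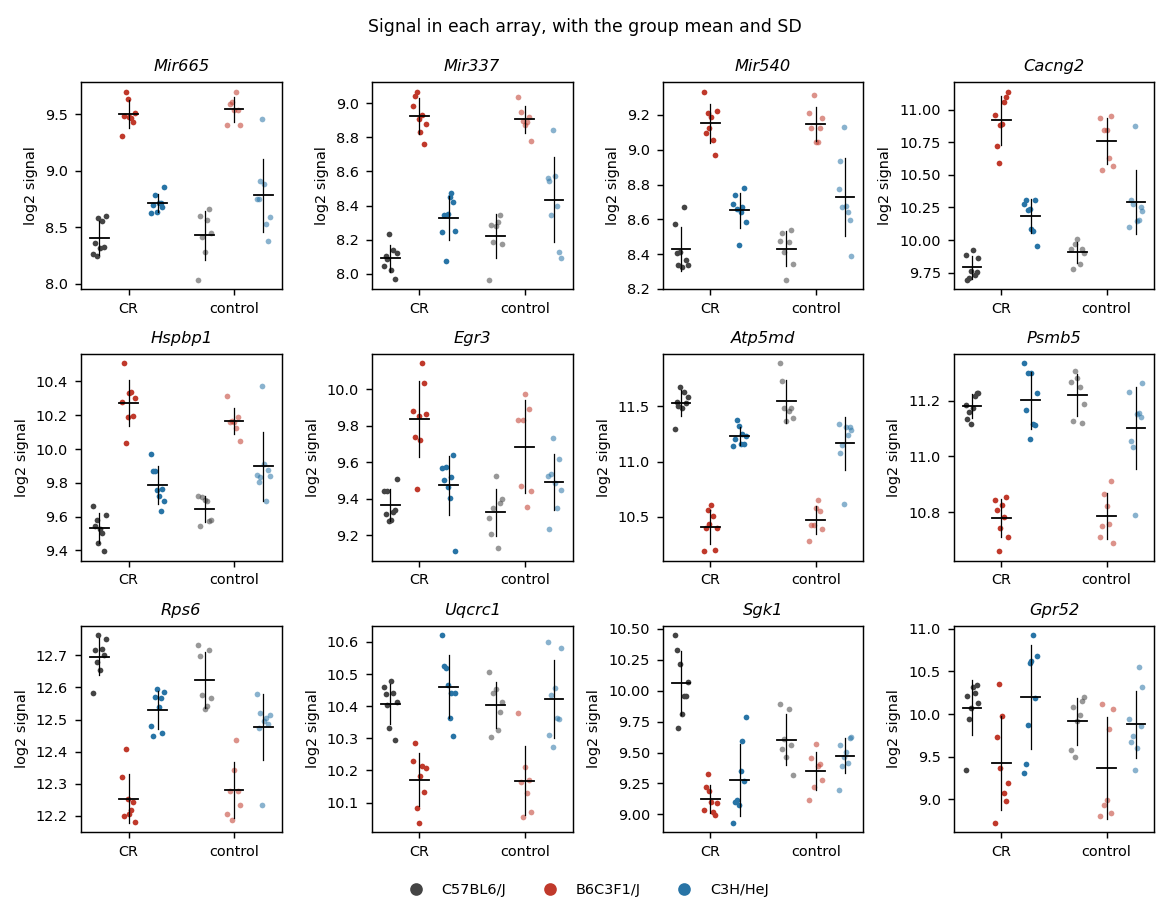
Log2 signal of 12 genes in each array of the 3 strains, CR at the left and control at the right of each panel. Points are arrays, horizontal lines group means and vertical lines 1 SD. In Mir665, Mir337, Mir540, Cacng2, Hspbp1, Atp5md, Psmb5, Rps6 and Uqcrc1 the hybrid CR arrays did not overlap the parental CR arrays. A single C3H/HeJ control array lay near the hybrid in several panels.

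Gpr52, the remaining gene of those 5, belonged to a set of its own. Gpr52, Drd1, Rasgrp2, Actn2, Lrrc10b and Htr2c were 6 of the 10 called genes with the largest falls. Gpr52 is an orphan receptor of striatal neurons, Drd1 the D1 dopamine receptor, Rasgrp2 an exchange factor for Rap and Actn2 an actin-binding protein of dendritic spines. Gpr52 ran from 8.72 to 10.36 in the hybrid, from 9.34 to 10.34 in C57BL6/J and from 9.31 to 10.93 in C3H/HeJ. Its departure of -0.71 ± 0.21 (SE) had an adjusted p of 0.00657. Drd1 departed by -0.66 (adjusted p = 0.034), Rasgrp2 by -0.69 (0.0406), Actn2 by -0.62 (0.0377), Lrrc10b by -0.62 (0.0245) and Htr2c, a serotonin receptor, by -0.59 (0.0437). None of the 6 was called in control. Leaving out a single CR array ended the call of Htr2c for 13 of 24 arrays, of Rasgrp2 for 10, of Actn2 for 9, of Drd1 for 8 and of Lrrc10b for 3.

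Values of the list of striatal medium spiny neurons, cells that lie beneath the cortex, stand beside them. Of 10 measured markers 1 was called lower, Drd1 itself, a share of 10% beside 12.7% of all genes. All 10 had a negative departure, and the median was -0.66 log2 units under CR and -0.47 in control. The mean signal of the list ran from 8.61 to 10.5 in the hybrid CR arrays (median 9.18), from 9.34 to 10.2 in C57BL6/J and from 9.04 to 10.6 in C3H/HeJ. Penk, the enkephalin precursor, departed by -0.68 (adjusted p = 0.078) and Gpr6 by -0.69 (adjusted p = 0.0987). Arrays of the same strain differed by more than 1 log2 unit on this list in the hybrid and in C3H/HeJ. The part of the amount of striatal RNA in the falls of these genes was not tested. Of the striatal markers 8 of 10 were among the 4985 genes of highest signal, against 7 of 9 for excitatory neurons of cortex, 1 of 12 for cerebellar neurons and 1 of 9 for choroid plexus.

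Genes of energy metabolism lay below the parental mean. Of 38 subunits of oxidative phosphorylation, the chain of complexes that makes ATP in mitochondria, 25 fell and 2 rose, with a median of -0.16 log2 units under CR and -0.13 in control, and 21 recurred. For all genes 12.7% fell, 9.63% rose and the median was 0.02, and among the 4985 genes of highest signal, which held 33 of the 38 subunits, 25.3% fell. Uqcrc1, a core subunit of complex III, ran from 10.04 to 10.29 in the hybrid, from 10.29 to 10.48 in C57BL6/J and from 10.31 to 10.62 in C3H/HeJ, a departure of -0.26 (adjusted p = 2.65e-09). Its hybrid and parental arrays did not overlap, with the highest hybrid array at 10.2855 and the lowest parental array at 10.2947. Atp5b and Atp5a1, the catalytic core subunits of the ATP synthase, departed by -0.16 and -0.24. On a linear scale these were changes of -10.4% and -15.1%.

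Of 13 glycolytic enzymes 10 fell (76.9%) and none rose, with a median of -0.13 under CR and -0.10 in control. Pgk1, which makes ATP in glycolysis and lies on the X chromosome, departed by -0.30 (adjusted p = 6.4e-10) and Ldhb, a lactate dehydrogenase, by -0.27 (adjusted p = 2.3e-07). Of 19 genes of fatty acid oxidation and ketone use 9 fell (47.4%), none rose and all 19 departures were negative. Acat1, which acts on ketone bodies, departed by -0.26 and Hadh by -0.25. All 13 glycolytic genes and 11 of the 19 were among the 4985 genes of highest signal, of which 25.3% fell.

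Genes that make, fold and remove proteins showed the same sign. Of 34 proteasome subunits, the parts of the complex that degrades tagged proteins, 20 fell (58.8%) and none rose, with a median of -0.12 under CR and -0.13 in control, and 15 recurred. Of all genes 12.7% fell, and of the 4985 genes of highest signal, which held 25 of the 34 subunits, 25.3% fell. Psmb5, a catalytic subunit, ran from 10.66 to 10.86 in the hybrid, from 11.12 to 11.23 in C57BL6/J and from 11.06 to 11.33 in C3H/HeJ. Its departure was -0.41 ± 0.04 (SE, adjusted p = 3.65e-15) and -0.37 in control. Psmb6 departed by -0.41 and Psmd14 by -0.31, and in Psmd14 all 8 hybrid arrays lay below the parental arrays. In C3H/HeJ control replicate 4 the Psmb5 signal was 10.79, against 11.03 to 11.26 in the other 7.

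Of 38 cytosolic ribosomal proteins 22 fell (57.9%) and 1 rose, with a median of -0.15 under CR and -0.07 in control, and 14 recurred. The 4985 genes of highest signal, of which 25.3% fell, held 31 of the 38. Rps6 ran from 12.18 to 12.41 in the hybrid, from 12.58 to 12.76 in C57BL6/J and from 12.45 to 12.60 in C3H/HeJ, a departure of -0.36 (adjusted p = 1.28e-16). Rpl7 departed by -0.45 and Rps19 by -0.40. Ribosomal protein genes have many near-identical copies, and the 7 other probe sets named Rps6 gave departures from -0.40 to -0.32, so the source of the signal among the copies is uncertain. Of 20 genes that fold or clear proteins in the endoplasmic reticulum 8 fell (40%) and none rose, with 15 of the 20 among those genes of highest signal (P4hb, a disulfide isomerase, -0.25, and Herpud1 -0.24). Of 17 heat shock genes 5 fell (29.4%) and none rose, and 12 of the 17 were among the genes of highest signal. Hspe1, which codes for the co-chaperonin of mitochondria, departed by -0.41 and Cryab, a small heat shock protein, by -0.23.

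Of 22 antioxidant and glutathione genes 8 fell (36.4%) and none rose, beside 12.7% lower among all genes and 25.3% among the 4985 genes of highest signal, which held 16 of the 22. Gpx1 and Gpx4, glutathione peroxidases, departed by -0.37 (adjusted p = 3.32e-05) and -0.25 (adjusted p = 1.68e-07), and both recurred. Of 17 genes of sterol synthesis and uptake 6 fell (35.3%) and none rose, and 2 of the 6 recurred. Here the hybrid lay at the level of C3H/HeJ. The mean signal of the sterol list under CR was 9.05 in C57BL6/J, 8.88 in C3H/HeJ and 8.89 in the hybrid.

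**Figure D4:**
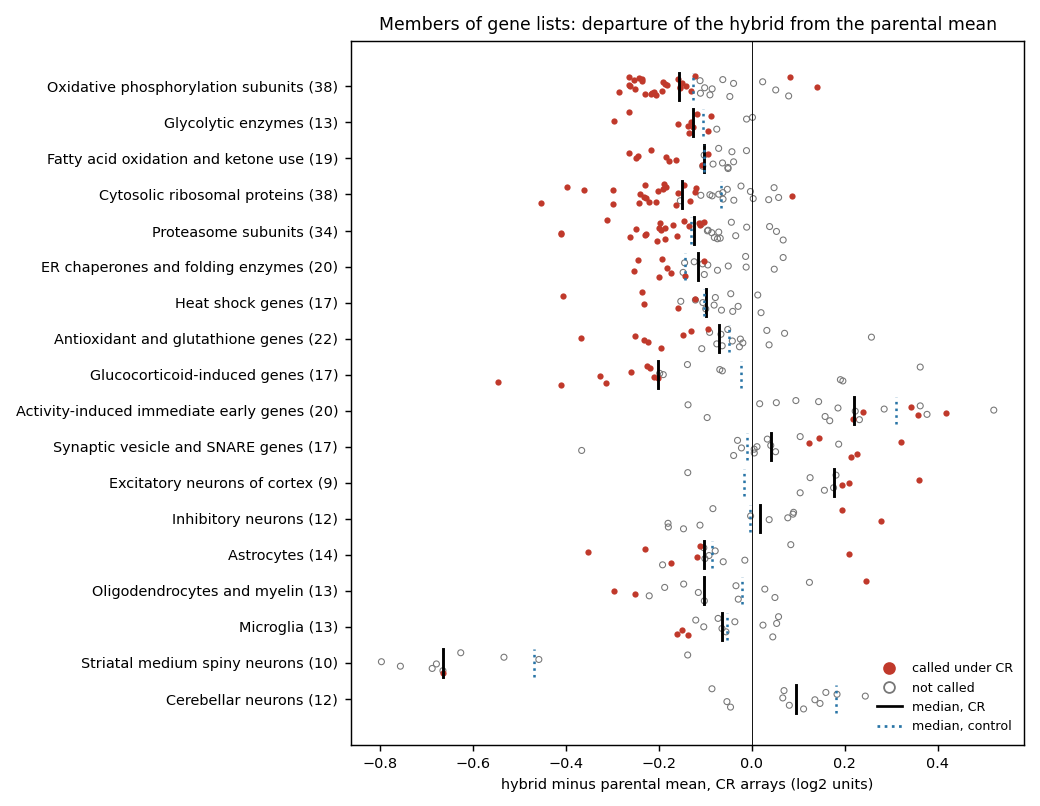
Departure of the hybrid from the parental mean under CR (log2 units) for the measured members of 18 gene lists, with the number measured in parentheses. Red points were called and open points were not, black lines are list medians under CR and dotted blue lines list medians in control. The medians of the lists of energy metabolism, protein turnover and stress lay left of 0 and that of immediate early genes right of 0.

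Glucocorticoid-induced genes respond to corticosterone, the stress hormone of mice. Of 17 measured 9 fell (52.9%) and none rose, beside 12.7% and 9.63% of all genes, with a median of -0.20 under CR and -0.02 in control, and 1 of the 9 recurred. No member was called for a difference between diets, and 5 had an unadjusted p under 0.05 for it. Sgk1, a kinase, ran from 8.99 to 9.33 in the hybrid, from 8.93 to 9.79 in C3H/HeJ and from 9.70 to 10.45 in C57BL6/J. It departed by -0.55 (adjusted p = 3.08e-06) under CR and by -0.19 (adjusted p = 0.177) in control. Fkbp5, a cochaperone of the glucocorticoid receptor, departed by -0.41 and Ddit4, an inhibitor of mTORC1 signalling, by -0.33. In all 3 the hybrid was called different from C57BL6/J and not from C3H/HeJ. The parents differed in the list too, with a median C3H/HeJ minus C57BL6/J difference of -0.36 log2 units under CR. The mean signal of the list ran from 8.94 to 9.24 in C57BL6/J CR arrays, from 8.75 to 8.91 in C3H/HeJ and from 8.70 to 8.85 in the hybrid, and C57BL6/J is the parent whose CR ration was lowered again.

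Activity-induced immediate early genes, which neurons switch on within minutes of firing, had the opposite sign. Of 20 measured 5 rose (25%) and none fell, beside 9.63% higher among all genes, with a median of 0.22 under CR and 0.31 in control, and 4 of the 5 recurred. Egr3 ran from 9.45 to 10.14 in the hybrid, from 9.28 to 9.51 in C57BL6/J and from 9.11 to 9.64 in C3H/HeJ, and 7 of 8 hybrid arrays lay above all parental arrays. It departed by 0.42 (adjusted p = 4.02e-05), Egr1 by 0.36 (adjusted p = 0.00531) and Egr4 by 0.24 (adjusted p = 0.0242). The call of Egr4 was lost without any 1 of B6C3F1/J CR replicates 1, 2 and 6.

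Of 17 synaptic vesicle and SNARE genes 5 rose (29.4%) and none fell, beside 9.63% higher among all genes and 15.6% among the 4985 of highest signal, which held 16 of the 17, with 4 recurring and a list median of 0.04. Cplx1, complexin, a regulator of vesicle fusion, departed by 0.32 (adjusted p = 8.78e-09) and Syp, synaptophysin, by 0.23 (adjusted p = 2.9e-07). Of 15 ionotropic glutamate receptor subunits 2 rose (13.3%) and none fell, and of 12 GABA-A receptor subunits 1 rose (8.33%) and 3 fell (25%). Of all genes 12.7% fell, and of the 4985 of highest signal, which held 8 of the 12 GABA-A subunits, 25.3% fell.

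Markers of cell types were called in both directions, and their shares stand beside 9.63% higher and 12.7% lower among all genes. Among the 4985 genes of highest signal 15.6% were higher and 25.3% lower. That set held 7 of 9 excitatory, 6 of 12 inhibitory and 11 of 14 astrocyte markers. Of 9 markers of excitatory cortical neurons 3 rose (33.3%), with a median of 0.18 under CR and -0.02 in control, and none recurred. Cux2, a factor of upper cortical layers, departed by 0.36 (adjusted p = 0.00181), Emx1 by 0.21 and Neurod2 by 0.19. The call of Neurod2 was lost without any 1 of 6 arrays, and that of Emx1 without either of B6C3F1/J CR replicates 1 and 7. Of 12 markers of inhibitory neurons 2 rose (16.7%), among them Sst, somatostatin, with 0.28 (adjusted p = 0.00035). Of 14 astrocyte markers 5 fell (35.7%) and 1 rose. S100b, a calcium-binding protein, departed by -0.35 and Acsbg1 by -0.23, both recurring, whereas Sox9 departed by 0.21.

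Of 13 markers of oligodendrocytes and myelin 2 fell (15.4%) and 1 rose, beside 12.7% and 9.63% of all genes. Mal, a proteolipid of myelin, departed by -0.30 but lay between the parents, with means of 10.61 in C57BL6/J, 9.85 in the hybrid and 9.67 in C3H/HeJ. The mean signal of the myelin list under CR was likewise 9.69, 9.43 and 9.31. Sox10, the factor that sets the lineage, departed by 0.25. Of 13 microglial markers 3 fell (23.1%), among them Csf1r (-0.16) and Cx3cr1 (-0.14). Of 14 markers of endothelium and mural cells 4 fell (28.6%) and all 4 recurred, with Abcb1a, a drug transporter of the blood-brain barrier, at -0.20. No marker of choroid plexus, cerebellar neurons or thalamus was called. Of 9 hippocampal markers 1 fell, Ociad2, by 0.37 log2 units.

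Of 18 genes of insulin, IGF and FoxO signalling 3 rose (16.7%) and 2 fell (11.1%), beside 9.63% higher and 12.7% lower among all genes. Igf2, a growth factor, departed by 0.45 (adjusted p = 0.0175), a call that was lost without either of B6C3F1/J CR replicates 3 and 8, and Txnip, which limits glucose uptake, by -0.29 (adjusted p = 0.00183). Of 18 clock genes 1 rose, Nr1d1, a repressor of the clock, by 0.32 (adjusted p = 6.1e-05), and 1 fell. Of 17 interferon-stimulated genes 2 fell (11.8%), a share near that of all genes, and of 14 H2 genes of the major histocompatibility complex 2 rose (14.3%).

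Genes with known modes of inheritance were then examined. Of 12 imprinted genes read from the maternal allele 2 rose and 1 fell, with a median of 0.06 under CR and 0.14 in control. Kcnk9, a potassium channel, departed by 0.25 (adjusted p = 0.00166) and recurred. Of 21 read from the paternal allele 5 fell and none rose, with a median of -0.003. Inpp5f departed by -0.24 and Sgce, a sarcoglycan, by -0.18, and both recurred. These were 16.7% higher for the maternal list and 23.8% lower for the paternal list, beside 9.63% higher and 12.7% lower among all genes.

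To see where the hybrid lay between its parents, genes were chosen in the control arrays, by a parental difference that was called and of at least 0.5 log2 units, and their position was measured in the CR arrays. There 0 is the C57BL6/J mean, 1 the C3H/HeJ mean and 0.5 the parental mean. Of 259 such genes (1.30% of all) 244 were autosomal. Their median position was 0.609, with quartiles of 0.440 and 0.745, and 162 lay nearer to C3H/HeJ and 82 nearer to C57BL6/J. The median over these genes ran from 0.565 to 0.655 in the 8 hybrid CR arrays (SD 0.0303), above 0.5 in each. It was 0.608 in the 87 genes that were higher in C3H/HeJ and 0.610 in the 157 that were higher in C57BL6/J. The hybrid was called off the parental mean in 80 of the 244.

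**Figure D5:**
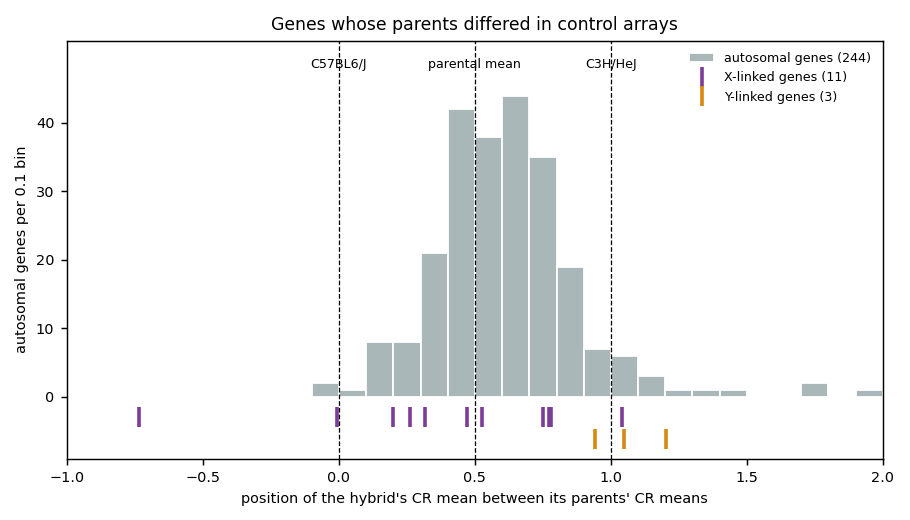
Position of the hybrid's CR mean between its parents' CR means, 0 being C57BL6/J and 1 C3H/HeJ, for genes whose parents differed in control arrays. Bars are 244 autosomal genes in bins of 0.1, 4 of which lay beyond the axis, and ticks are 11 X-linked and 3 Y-linked genes. The autosomal median was 0.609 and the 3 Y-linked genes lay at or above 0.94.

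Of 7 Y-linked genes measured 3 had parents that differed enough in control to be placed, and all 3 were called above C57BL6/J and none below C3H/HeJ, the father's strain. These 3 were called higher than the parental mean and the other 4 were not called. Uty ran from 9.42 to 9.74 in the hybrid, from 9.30 to 9.55 in C3H/HeJ and from 8.51 to 8.82 in C57BL6/J. The positions of Eif2s3y and Kdm5d were 0.94 and 1.05, and Uty was called above C3H/HeJ too, by 0.16 (adjusted p = 0.0417). The 11 X-linked genes were spread from -0.73 to 1.04 with a median of 0.472, and the median of a single array ran from 0.179 to 0.906 (SD 0.247), so no position of X-linked genes could be set at this number of genes. Hccs, which attaches heme to cytochrome c, lay at the level of C3H/HeJ, with means of 10.19 in the hybrid, 10.16 in C3H/HeJ and 9.42 in C57BL6/J. Bex1 had means of 8.62 in the hybrid, 8.38 in C3H/HeJ and 9.47 in C57BL6/J, and G530011O06Rik 7.99, 7.21 and 8.69. Against C57BL6/J, the mother's strain, the hybrid was called different in Hccs (0.77), Bex1 (-0.85), Bex2 (-0.40) and G530011O06Rik (-0.70), and not in Hmgn5 (0.001). Against C3H/HeJ only G530011O06Rik of these was called (0.78). These are the X-linked genes with the largest parental difference in control, and why they lay where they did was not tested. Hmgn5 had a low mean signal, 5.32, and its parents were not called different under CR (-0.15, adjusted p = 0.511). The missing calls in Hmgn5 therefore do not place the hybrid at either parent.

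Among autosomal genes with known parental alleles, Gabra2, a GABA-A receptor subunit that is lower in C57BL6/J, had means of 9.39 in C57BL6/J, 10.14 in the hybrid and 10.54 in C3H/HeJ. The hybrid departed from the mean of the parents by 0.17 (adjusted p = 0.0379), and with the parental mean taken on linear signal the adjusted p was 0.53. Glo1, glyoxalase, had means of 9.36 in C57BL6/J, 9.49 in the hybrid and 10.03 in C3H/HeJ, a departure of -0.20 (adjusted p = 0.00129). Nnt, which carries a deletion in C57BL6/J, departed by 0.02 (adjusted p = 0.779). Where its probe set lies relative to the deletion is not given in the sources used here, so it checks nothing.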

How the data were processed

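The deposited values, per the labels, are log2 signals that the authors made from Affymetrix Mouse Gene 1.0 ST arrays with Affymetrix Expression Console and RMA. The sources used here give neither the versions nor whether all arrays were normalised together. RMA shares probe effects across arrays and compresses differences at low signal. Of 35556 probe sets, 21789 had exactly 1 platform symbol, and the probe set with the highest mean signal stood for each of 999 genes with several, which left 19938 genes. limma 3.58.1 in R 4.3.3 was fitted to 14 group means over 110 arrays (96 residual degrees of freedom). Replicate 6 of the C57BL6/J control group and replicate 8 of the B6C3F1/J control group were left out. Contrasts were the hybrid minus the mean of both parental means in each diet, the difference of these, and the hybrid against each parent, with Benjamini-Hochberg adjustment over 19938 genes. Outside both parents means a call against each parent in the same direction. The members and the 35 gene lists (559 of 628 entries measured) were chosen with earlier results of these data known. Named genes were the 10 largest rises and falls among called genes and the 5 highest and lowest outside both parents. Others were up to 3 members per list and genes of inheritance lists with the largest parental difference in control. The diet difference gave 4 genes, and Nnt and Gabra2 were also named. Begain, Meg3, Rtl1, Mir377, Mir299a and other members named beside these were chosen after their values were seen. The array score was added after seeing the data. The fit was tested on simulated data. p-values rest on the spread between arrays of different mice.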

Additional observations from a re-analysis of the deposited data

Results flagged for a closer look

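In 261 groups of 8 CR arrays (87 genes in each of the 3 strains), the highest or lowest array of 18 groups stood apart from the other 7 by Dixon's 95% criterion, which flags about 1 group in 20 by chance. C57BL6/J CR replicate 1 accounted for 7 of them, each the lowest of its group, with log2 signals of 9.34 in Gpr52, 8.4 in Rasgrp2, 8.65 in Actn2, 12.1 in Penk, 8.67 in Gpr6, 8.89 in Gpx1 and 8.96 in Gabra2. The first 5 are genes of the striatal set described above, and the nearest other array lay at 9.94 in Gpr52 and 12.6 in Penk. C3H/HeJ CR replicate 8 was lowest in Egr3 (9.11), Cplx1 (11.5) and Neurod2 (8.84), and C3H/HeJ CR replicate 7 in Ldhb (10.5) and Rian (7.96). B6C3F1/J CR replicate 3 was lowest in Emx1 (7.58) and Neurod2 (9.31). Replicate 1 was lowest in Snord53 in C3H/HeJ (10.4) and in B6C3F1/J (9.98). C57BL6/J CR replicate 4 was lowest in Mrps21 (9.36) and C57BL6/J CR replicate 6 highest in Sgce (9.85). What set these arrays apart was not tested.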

How the results depend on the processing

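The count of CR departures was 4463 and ran from 3587 with no array left out to 4958 with every probe set on its own, and genes outside both parents from 1165 to 1755. The 2 arrays left out are control arrays. They bear on the CR contrast only through the estimate of spread that all groups share. Recurring departures ran from 2012 to 2804, and no setting called a difference between diets. Leaving out 1 CR array gave 3605 to 4786 departures, the fewest without B6C3F1/J CR replicate 7. The share of departures that were higher was 43.0%, and it ran from 36.6% to 47.9%. With no array left out, 12 of 87 named genes lost their call, among them Drd1, Rasgrp2, Actn2, Htr2c, Egr1 and Gabra2. Replicate numbers were not treated as pairs in the main fit. Same-numbered CR arrays had a median correlation of 0.0569 (-0.356 to 0.444), and differently numbered ones -0.00255 (-0.505 to 0.485). In control these medians were 0.0662 and -0.00756. With the replicate block 4518 departures were called under CR, 3739 in control, 1575 outside both parents and 2553 recurring. The X-linked position ran from 0.313 to 0.711 and the autosomal one from 0.592 to 0.632. Scaling moved the median departure of all genes from 0.018 to 0.00076 after quantile normalisation and to 0.023 after centring. The unmoderated linear model gave no test of the diet difference, and the fit of only the CR groups no control values. Leaving out 1 CR array at a time, or C3H/HeJ control replicate 4, was chosen after seeing the data. RMA signals near background limit the genes of lowest signal.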
